A study of Homo sapiens with 2 samples.

Results

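Venous endothelial cells called non-cycling were taken from 2 BG-HFOs, blood-generating heart-forming organoids. They were the barcodes with at least 2 UMIs of *CDH5* and at least 2 of *NR2F2*, with more UMIs of *NR2F2* than of *CXCR4*. A UMI is a unique molecular identifier and stands for 1 captured transcript. Barcodes needed 500 to 9000 genes and under 15% mitochondrial UMIs. Those with any UMI of *RUNX1* or *PTPRC*, more than 2 of *MYH6* or more than 1 of *PDGFRA* were left out. So were those with more than 2 UMIs of *MKI67* and *TOP2A* together. These limits were meant to set aside blood-forming, cardiac, mesenchymal and cycling cells. The limit on cycling rests on raw UMIs of 2 genes, so cycling cells with few of these UMIs can remain. This left 744 cells of 36814 barcodes in all (2.02%). Organoid 32.7 gave 393 cells, 2.51% of the 15632 barcodes within the limits (exact 95% binomial interval 2.27 to 2.77%), and organoid 33.10 gave 351 cells, 1.84% of 19117 (1.65 to 2.04%). The mean over organoids was 2.18% ± 0.479 (SD, n = 2).

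Veins and arteries are lined by endothelial cells that run different gene programmes from early in development. *NR2F2* (COUP-TFII), a nuclear receptor, is known to hold the venous programme and to keep Notch signalling, which arterial fate needs, in check. In the embryo the great veins reach the heart at its inflow, next to the septum transversum, and endothelium of venous character also gives rise to the sinusoids of the liver, which clear proteins from the blood through scavenger receptors.

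Both organoids were grown from hES3 NKX2.5-eGFP, an established human embryonic stem cell line with a green fluorescent reporter for the cardiac factor NKX2-5, and were dissociated on day 14. The aggregates had been embedded in Matrigel and directed by WNT activation followed by WNT inhibition, together with cytokines and growth factors that favour blood vessels and blood. Line, treatment and age were shared by both organoids, so that cell classes within them were compared and not conditions, and all values hold for 1 line. Each organoid gave 1 library of 3′ transcript ends from single cells. Organoid 32.7 had 16866 barcodes with 191152562 UMIs and organoid 33.10 had 19948 barcodes with 233818881 UMIs. The libraries shared 100 barcode sequences, 6 of the venous cells carried a shared sequence, and no shared sequence was a venous cell in both.

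The venous cells had a median of 13091 UMIs and 4586 genes in organoid 32.7 and of 11098 UMIs and 4320 genes in organoid 33.10. For tests their UMIs were summed per organoid, 5716756 and 4433719 in all, and set against the sums of other gated endothelial classes. The arterial class was gated in the same way with the roles of *CXCR4* and *NR2F2* exchanged (987 and 877 cells). The cycling venous class had more than 2 UMIs of *MKI67* and *TOP2A* (23 and 25 cells), and a further class had no UMI of *NR2F2* or *CXCR4* (309 and 324 cells). Levels are given as CPM, the UMIs of a gene scaled to 1000000 UMIs of its class, with organoid 32.7 first and organoid 33.10 second throughout. A log2 fold change is followed by its standard error and is venous minus the other class, so that positive values are higher in venous cells.

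The genes that the gate used are described without a test. Endothelial cadherin *CDH5* was at 398 and 374 CPM in venous cells, with a median of 5 and 4 UMIs per cell, and at 350.2 and 305 CPM in arterial cells. *NR2F2* was at 470.02 and 407 CPM, against 9.25 and 9.04 CPM in arterial cells. *CXCR4*, the arterial chemokine receptor of the gate, had no UMI in 338 of 393 and 303 of 351 venous cells.

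Markers that the gate did not use were high in venous cells. *APLNR*, *CRHBP* and *OIT3* came with the rule for this class, with earlier results of these data known. Their values and p-values are therefore no independent evidence of its identity. *APLNR*, the apelin receptor, was at 405 and 349 CPM in venous cells and 88.6 and 79.0 CPM in arterial cells, a log2 fold change of 2.11 ± 0.15 (edgeR quasi-likelihood test, adjusted p = 1.8e-06). *CRHBP*, which binds corticotropin-releasing hormone, was at 435 and 429 CPM against 9.51 and 19.3 CPM, a difference of 4.87 ± 0.26 (adjusted p = 2.1e-07). *OIT3*, a secreted glycoprotein known from liver endothelium, was at 247 and 260.1 CPM against 53.1 and 46.5 CPM, 2.29 ± 0.20 apart (adjusted p = 6.5e-06). For each of these genes both venous values lay above both arterial values. The genes lie at chr11:57233577-57237250 (*APLNR*), chr5:76953045-76981158 (*CRHBP*) and chr10:72893584-72933036 (*OIT3*) of GRCh38 (GENCODE annotation), and reads over exons and introns were counted. Of the venous cells, 97.2% in organoid 32.7 and 97.7% in organoid 33.10 had a UMI of at least 1 of these 3 genes, 29.5% and 34.2% had all 3, and 11 and 8 cells had none.

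**Figure D1:**
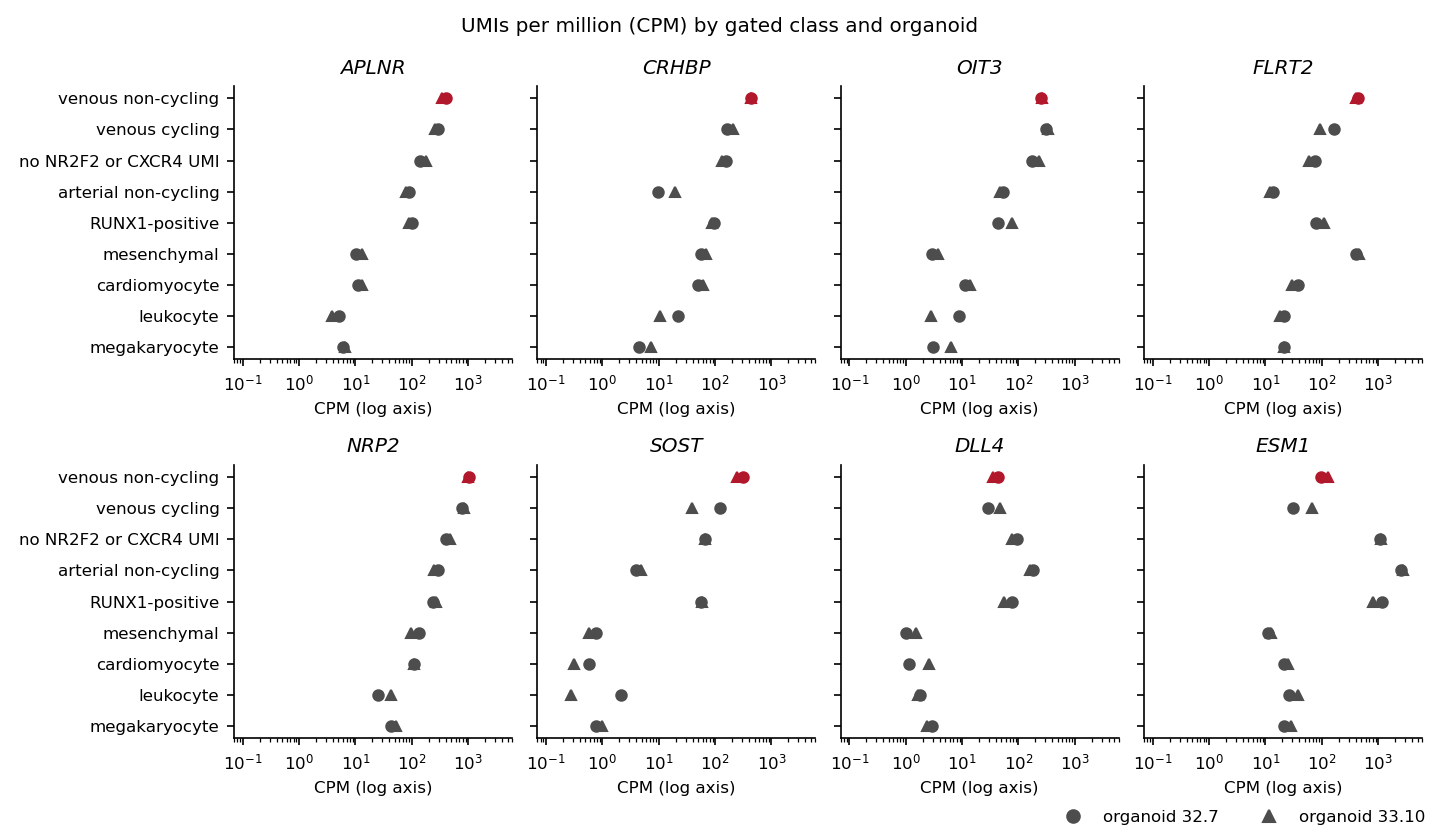
Levels of marker genes (CPM, log scale) in the gated cell classes, with 1 point per organoid. *SOST* sits at 309 and 241 CPM in venous cells and below 5 CPM in arterial cells, and *FLRT2* is about as high in mesenchymal cells (397 and 453 CPM) as in venous cells (432 and 407 CPM).

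Across all gated classes, *APLNR* was highest in venous cells. After the venous cells came cycling venous cells at 295 and 261 CPM, the class without *NR2F2* and *CXCR4* UMIs at 139 and 177 CPM, and the *RUNX1*-positive endothelium at 101 and 91.0 CPM, each above the arterial class. Cardiomyocytes were at 11.3 and 13.1 CPM and megakaryocytes at 6.05 and 6.57 CPM. *SOST* had the same first place, and its levels in cardiomyocytes (0.581 and 0.319 CPM), mesenchymal cells (0.764 and 0.569 CPM) and leukocytes (2.10 and 0.279 CPM) were near 0. Other genes of the venous cells were shared with unrelated classes. *GATA4* was at 379.6 and 477 CPM in mesenchymal cells and 303 and 317 CPM in cardiomyocytes, above its 266 and 264 CPM in venous cells, and *MRC1* was at 296 and 394 CPM in leukocytes.

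The share of single cells with a UMI was set beside the sums. *APLNR* had a UMI in 92.9% and 91.2% of venous cells, against 3.67% and 4.36% of megakaryocytes, a type that should lack it, at median depths of 13091 and 11098 UMIs in venous cells and 7804 and 7769 in megakaryocytes. The same share was 45.8% and 50.1% for *CRHBP* (megakaryocytes 2.35% and 2.98%) and 45.3% and 46.2% for *SOST* (megakaryocytes 0.441% and 0.579%). Other classes had larger shares for some genes. *CRHBP* had a UMI in 17.7% and 29.1% of cardiomyocytes and 11.2% and 15.5% of mesenchymal cells, and *APLNR* in 10.5% and 13.0% of cardiomyocytes and 14.1% and 17.7% of mesenchymal cells. *FLRT2* had a UMI in 83.7% and 87.1% of mesenchymal cells, above the 73.3% and 73.2% of venous cells. The arterial tip-cell gene *ESM1* had a UMI in 16.3% and 16.2% of venous cells, 95.2% and 95.9% of arterial cells and 7.20% and 7.17% of megakaryocytes. After each cell was thinned to 5000 UMIs, which left out 23 and 28 venous cells and 225 and 686 megakaryocytes, the venous shares were 80.0% and 77.1% for *APLNR*, 38.6% and 42.4% for *CRHBP* and 39.7% and 35.9% for *SOST*, against 2.19% and 3.40%, 1.32% and 1.99%, and 0.439% and 0.448% of megakaryocytes. *CRHBP* then had a UMI in 12.7% and 17.2% of cardiomyocytes.

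Cells on either side of the lower limit on *NR2F2* were close in *APLNR* but not in every gene. Members with exactly 2 UMIs of *NR2F2* numbered 69 and 80 and had 335 and 283 CPM of *APLNR*, whereas the cells just outside, with 1 UMI of *NR2F2* and none of *CXCR4*, numbered 90 and 116 and had 317 and 319.6 CPM. *ESM1* was lower just inside than just outside (182 against 280 CPM in organoid 32.7 and 121 against 242 CPM in organoid 33.10) and *FLRT2* higher (170 against 115 CPM and 289 against 219 CPM), while *DLL4* went opposite ways in the organoids (65.3 against 48.5 CPM and 32.7 against 63.3 CPM). Cells that failed only because *CXCR4* exceeded *NR2F2* numbered 26 and 18. They had 1364 and 1352 CPM of *ESM1*, against 54.2 and 55.8 CPM in the members without a *CXCR4* UMI. Members that did carry a *CXCR4* UMI, 55 and 48 cells, had 274 and 484 CPM of *ESM1*. At the limit on *CDH5*, members with exactly 2 UMIs had 1083 and 538 CPM of *CRHBP*. Cells that failed only by having 1 UMI of *CDH5* had 727 and 363 CPM. *PECAM1* was at 129 and 172 CPM in the former and 113 and 193 CPM in the latter. These values describe cells chosen by the gate itself and were not tested. 

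When endothelial cells that met all other conditions were ordered by their *NR2F2* UMIs, whatever their *CXCR4*, *APLNR*, *NRP2* and *TEK* were higher in each bin than in the one before in both organoids. From 0 to at least 9 UMIs of *NR2F2*, *FLRT2* went from 20.1 to 683 CPM in organoid 32.7 and from 17.7 to 631 CPM in organoid 33.10. *TEK*, the angiopoietin receptor, went from 57.7 to 424 CPM and from 63.2 to 461 CPM. *CRHBP* levelled off, with 419 CPM at 3 to 4 UMIs and 398 CPM at 9 or more in organoid 32.7, and 426 and 429.9 CPM in organoid 33.10. *OIT3* did not follow the order. In organoid 32.7 it was at 223 CPM at 2 UMIs, 158 CPM at 3 to 4 and 290 CPM at 9 or more, and in organoid 33.10 it was at 319 CPM at 3 to 4 UMIs, 191 CPM at 5 to 8 and 172 CPM at 9 or more. In the opposite direction, the Notch ligand *DLL4* went from 167 to 26.3 CPM and from 143 to 30.1 CPM. *ESM1* went from 2316 to 20.5 CPM in organoid 32.7, but in organoid 33.10 it was at 2483 CPM, then 153 CPM at 3 to 4 UMIs, and stood at 344 CPM in the 47 cells with 9 or more. Median depth fell and then rose along the bins. It was 12715 and 10473.5 UMIs at 0 UMIs of *NR2F2* and lowest at 2 (11004 and 9718). From there it rose with each bin in both organoids, to 16430.5 and 16676 at 9 or more. The part of depth in the changes was not tested.

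**Figure D2:**
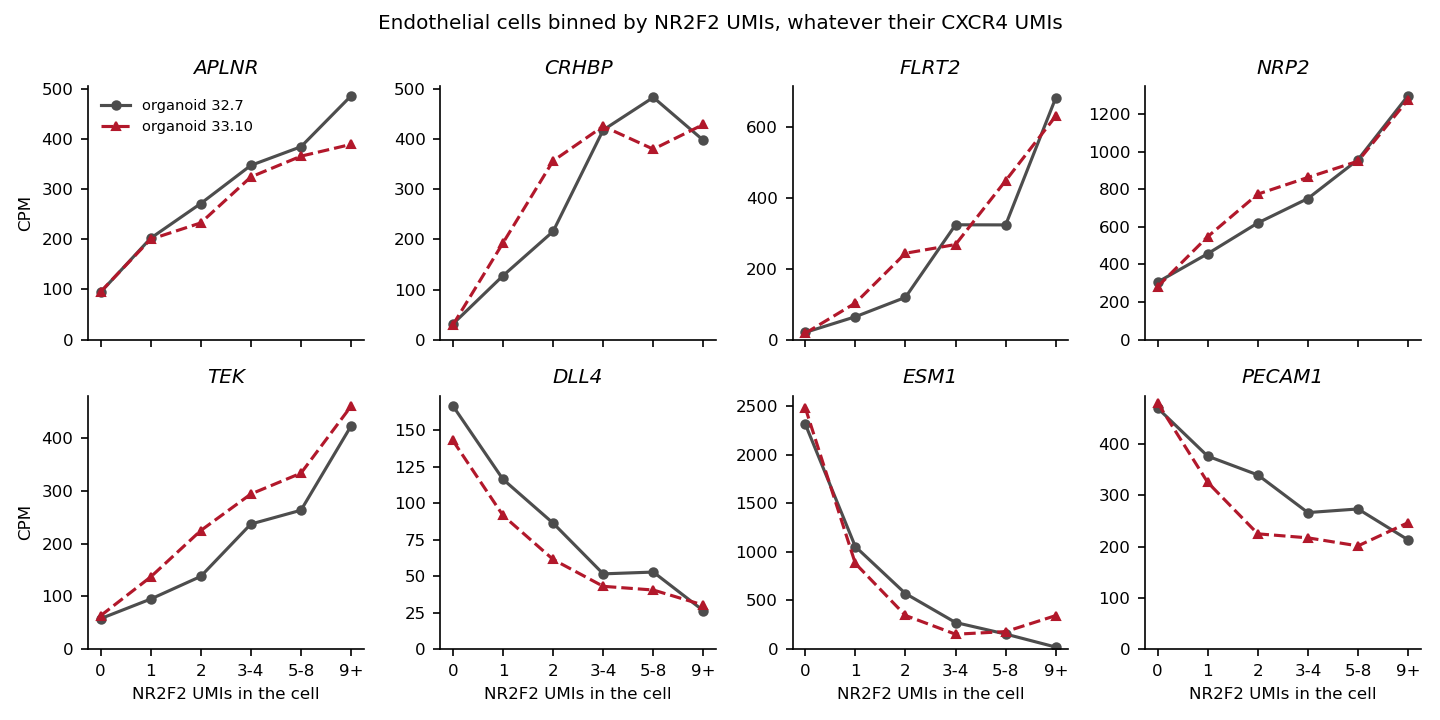
Levels (CPM) of endothelial genes in cells binned by their UMIs of *NR2F2*, with each organoid drawn as its own line. *FLRT2* climbs from 20.1 to 683 CPM in organoid 32.7 while *DLL4* goes from 167 to 26.3 CPM.

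Venous and arterial cells were then compared across all genes outside the gate, to ask how the 2 vessel types differed beyond the genes that separated them. Of 14562 genes tested, 2771 passed an adjusted p of 0.05 (19.0%), with 1503 higher in venous cells (10.3%) and 1268 lower (8.71%). These shares are the background for every list count in this comparison, and counts near them are not read as results about a list. With the organoid as a block, which pairs the classes of 1 organoid, the count was 4769 (2454 higher and 2315 lower). The classes were separated in the same cells, so the p-values measure differences against the spread between the organoids and not the certainty of the cell types. The median over all genes tested was 0.01 on the log2 scale. All comparisons below share the same venous samples.

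**Figure D3:**
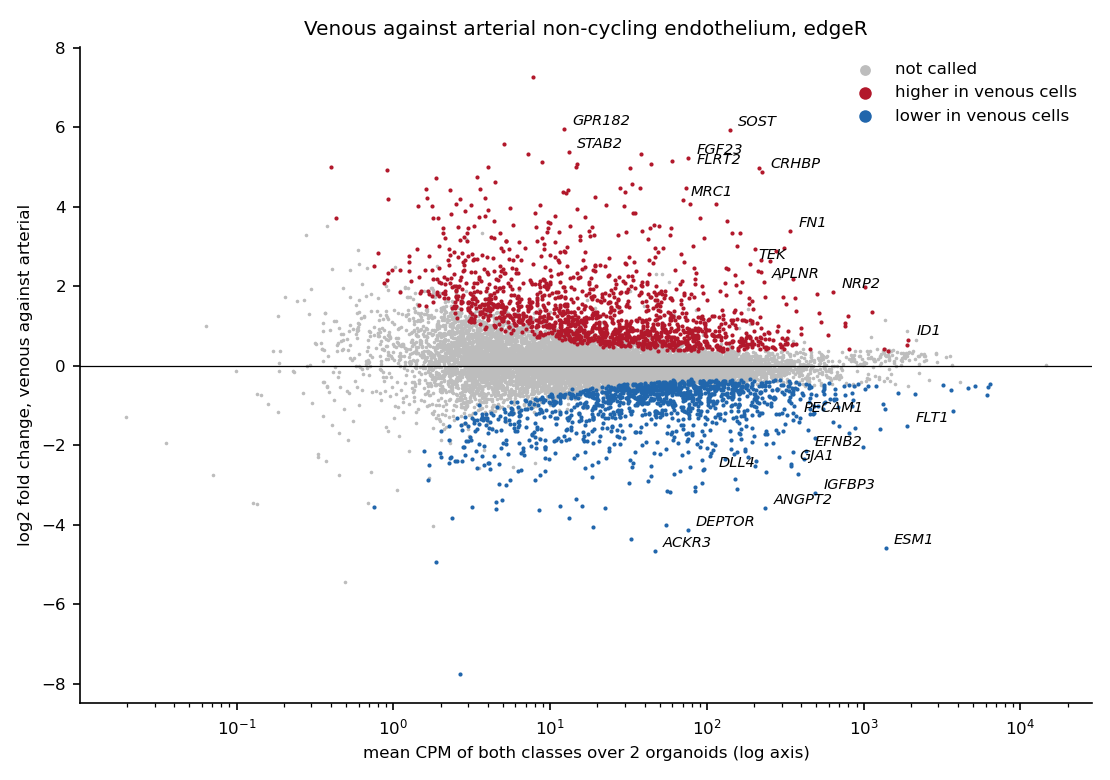
Log2 fold change of venous over arterial cells (vertical axis) against mean level (CPM, log scale), 1 point per gene tested outside the gate, with genes past an adjusted p of 0.05 coloured by direction. *SOST* (5.94) and *FLRT2* (4.98) stand far above 0, and *ESM1* (-4.60) far below.

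Several of the largest differences were genes for secreted or surface proteins. *SOST*, which encodes the WNT antagonist sclerostin, was at 309 and 241 CPM in venous cells and 3.90 and 4.76 CPM in arterial cells (5.94 ± 0.32 on the log2 scale, adjusted p = 2.1e-07). *FGF23*, a hormone known for the control of phosphate, was at 105 and 190.4 CPM against 2.71 and 4.91 CPM (5.23 ± 0.43, adjusted p = 5.3e-06), with organoid 33.10 above organoid 32.7. *GPR182*, an endothelial receptor that takes up chemokines, was at 25.4 and 23.0 CPM against 0.315 and 0.396 CPM (5.95 ± 0.33, adjusted p = 2.5e-07). Neither organoid's venous value came near an arterial value for these genes. *FLRT2*, a guidance protein that binds UNC5 receptors, differed by 4.98 ± 0.23 and *ACP5*, a phosphatase of lysosomes, by 5.33 ± 0.34. *CDH12*, a cadherin, *S100Z*, a calcium-binding protein, and the unnamed transcripts *AC012409.2* and *AC018742.1* completed the group, together with *NR2F2-AS1*. The last overlaps the start of *NR2F2*, and its value is uncertain for that reason.

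The upstream sequences of *SOST* and *FGF23* are shown because these genes were among the furthest apart between the vessel types. Each runs over the 250 bases before the start of transcription on its own strand (RefSeq, GRCh38.p14, minus strand), chr17:43758792-43759041 for *SOST* and chr12:4379713-4379962 for *FGF23*. Capitals mark the letters searched on both strands. AGGTCA is a half-site, a part of the element that nuclear receptors of the COUP-TF kind bind. Zinc-finger factors of the GATA family bind AGATAA. The ETS factors of endothelium bind GGAAGT.
SOST: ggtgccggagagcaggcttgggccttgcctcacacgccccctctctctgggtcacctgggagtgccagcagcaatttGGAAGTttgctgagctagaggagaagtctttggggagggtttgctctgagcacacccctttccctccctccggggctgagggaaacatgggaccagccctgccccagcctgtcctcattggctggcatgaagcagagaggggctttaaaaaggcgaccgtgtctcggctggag
FGF23: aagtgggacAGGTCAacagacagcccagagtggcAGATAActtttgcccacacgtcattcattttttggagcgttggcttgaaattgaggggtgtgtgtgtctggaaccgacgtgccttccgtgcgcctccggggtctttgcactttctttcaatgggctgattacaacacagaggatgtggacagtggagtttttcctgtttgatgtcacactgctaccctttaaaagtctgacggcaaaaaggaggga
The *SOST* window holds the ETS letters, and that of *FGF23* holds the nuclear receptor and the GATA letters. Among 35116 RefSeq promoters cut to the same length, 12.1% held the nuclear receptor letters on either strand, 9.17% the GATA letters and 19.5% the ETS letters. Among genes at 20 CPM or more in the higher class and alike in both organoids, the 10 furthest up in venous cells were also looked up. Of these, 7 were found among the promoters, and 1, 2 and 1 of them held these letters in the same order. These matches are letters in a window and were not tested for use.

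All 8 venous marker genes outside the gate were higher in venous than in arterial cells (median 2.20). This list was drawn up with earlier results of these data known, so its direction is no independent evidence. *NRP2*, a co-receptor for semaphorins and VEGFC, was at 1015 and 989 CPM against 289 and 248 CPM (1.84 ± 0.13, adjusted p = 1.9e-06). *EPHB4*, the receptor through which veins read ephrin-B2, was at 138 and 127 CPM against 66.5 and 54.5 CPM (1.07 ± 0.14, adjusted p = 0.00022). *NR2F1*, the close relative of *NR2F2*, was at 20.8 and 20.8 CPM against 1.83 and 2.06 CPM (3.35 ± 0.29, adjusted p = 7.2e-06), and the ectonucleotidase *NT5E* (CD73) differed by 1.23 ± 0.14. The venous values were above the arterial ones in both organoids for each.

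Of 14 arterial genes tested outside the gate, 13 were lower in venous cells and none was higher (median -1.73). *DLL4*, the Notch ligand of arteries and sprouts, was at 43.2 and 35.0 CPM in venous cells and 184 and 160.1 CPM in arterial cells (-2.19 ± 0.19, adjusted p = 7.5e-06). The arterial transcription factor *SOX17* was at 45.8 and 42.9 CPM against 237 and 195 CPM (-2.34 ± 0.15, adjusted p = 9e-07), and ephrin-B2 (*EFNB2*) at 185 and 143 CPM against 719.9 and 672 CPM (-2.14 ± 0.14, adjusted p = 1.1e-06). Venous and arterial values did not overlap. *GJA4*, an arterial connexin, was lower by a smaller amount (-1.33 ± 0.19), and its UMIs were found in 72.8% and 58.4% of venous cells but also in 56.2% and 57.0% of megakaryocytes. *GJA5*, another connexin, was called lower (-0.66 ± 0.20) and lost its call with DESeq2 (-0.65, adjusted p = 0.0700), in cells of at most 6000 genes (-0.66, adjusted p = 0.0778) and without cells that carried a UMI of the cardiac genes *MYH6* and *TNNT2*, the mesenchymal gene *PDGFRA* or the platelet gene *PF4* (-0.37, adjusted p = 0.286), an alternative chosen after the data were seen.

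Genes that every endothelium uses did not move as a group. Of 16 tested, 3 were higher in venous cells, 5 were lower and the median was -0.09. *TEK* was the furthest up, at 305 and 344 CPM against 53.0 and 52.2 CPM (2.57 ± 0.16, adjusted p = 6.5e-07). *PECAM1* (CD31), an adhesion molecule of cell contacts, was the furthest down, at 241 and 202 CPM against 512 and 515 CPM (-1.26 ± 0.13, adjusted p = 2.8e-05). *KDR*, the main VEGF receptor, was at 1281 and 1243 CPM against 946 and 940.2 CPM and missed the threshold (adjusted p = 0.08). It passed in 5 of 12 alternative analyses, among them the fit with the organoid as a block (0.37, adjusted p = 0.011). *EMCN*, a surface sialomucin, was called at 0.58 ± 0.14 but did not pass when all gated classes entered the fit (0.51, adjusted p = 0.313).

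Of 20 genes of liver sinusoidal endothelium, 14 passed the filter on low counts. Of these, 12 were higher in venous cells and none lower (median 2.82). A gene can pass that filter through the class where it is high. This list too was drawn up with earlier results known, so its median is no independent evidence and is not ranked against other lists. *CRHBP* and *OIT3* are also on the venous list. *STAB2*, a scavenger receptor for hyaluronan, was at 33.6 and 17.6 CPM against 0.189 and 1.03 CPM (5.39 ± 0.52, adjusted p = 1.7e-05). *MRC1*, the mannose receptor, was at 113 and 153 CPM against 5.10 and 9.19 CPM (4.18 ± 0.29, adjusted p = 1.4e-06), and the transcription factor *MAF* at 252 and 245 CPM against 20.8 and 17.2 CPM (3.65 ± 0.18, adjusted p = 1.5e-07). Their venous values exceeded the arterial values in both organoids. *GATA4*, a zinc-finger factor of liver endothelium as well as heart and also on the endocardial list below, differed by 3.35 ± 0.18, the C-type lectin *CLEC1B* by 3.46 ± 0.36 and clotting factor VIII (*F8*) by 2.17 ± 0.26. *CLEC1B* is also a platelet receptor. It was at 74.5 and 143 CPM in venous and 6.92 and 12.2 CPM in arterial cells but at 472 and 407 CPM in megakaryocytes, whose marker genes also summed higher in venous than in arterial cells (279 and 741 CPM against 186 and 462 CPM), and their part in its difference was not tested. *FCN3*, a lectin of complement, was called at 0.56 ± 0.17 but lost the call in 3 alternatives, with log2 fold changes of 0.45 to 0.49 and adjusted p of 0.0580 to 0.112. Of the other members, *CLEC4G*, *CLEC4M*, *CD209* and *WNT2* had at most 3 UMIs over all venous cells, and the hyaluronan receptor *LYVE1* was at 22.0 and 15.1 CPM in venous and 33.5 and 19.2 CPM in arterial cells (adjusted p = 0.41).

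**Figure D4:**
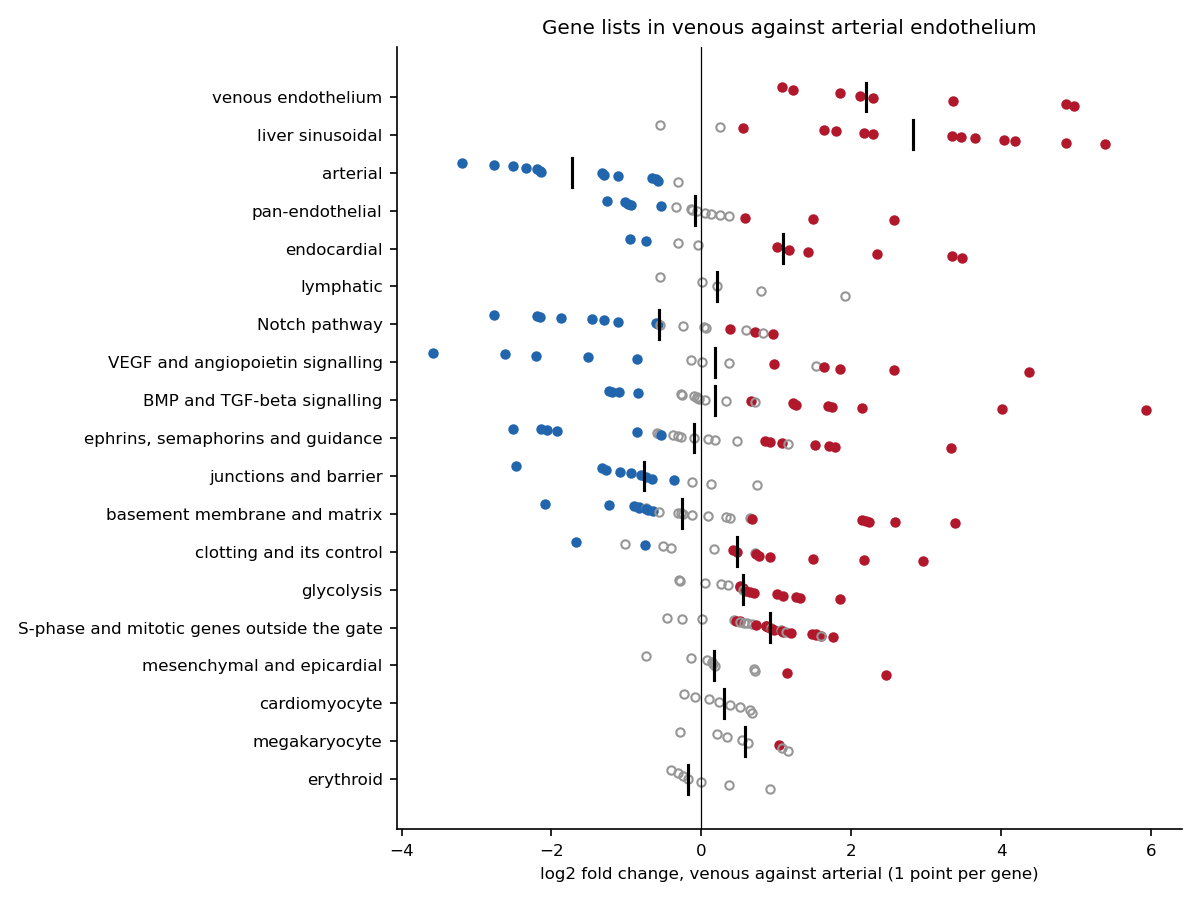
Log2 fold change of venous over arterial cells for the members of selected gene lists, 1 point per gene tested outside the gate, with the list's median as a bar, filled points for genes past an adjusted p of 0.05 and open points for the rest. The liver sinusoidal list has its median at 2.82 and the arterial list at -1.73.

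None of the 5 lymphatic genes tested passed, and *PROX1*, the factor that lymphatic fate needs, was at 35.0 and 21.7 CPM against 25.9 and 21.8 CPM (adjusted p = 0.62). Endocardial genes, which mark the inner lining of the heart, were divided, with 6 of 10 higher and 2 lower in venous cells. *ADGRG6*, an adhesion receptor, was at 69.4 and 90.7 CPM against 7.55 and 6.18 CPM (3.47 ± 0.18, adjusted p = 2.1e-07), and *GATA5* differed by 2.34 ± 0.32. *NFATC1*, the defining endocardial factor, was at 10.8 and 10.1 CPM against 9.13 and 11.9 CPM (adjusted p = 0.93). *PLVAP*, of the diaphragms of fenestrated vessels, was lower (-0.74 ± 0.17), as was the natriuretic peptide receptor *NPR3* (-0.96 ± 0.13), which lost its call when all gated classes entered the fit (-1.03, adjusted p = 0.114).

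Among 36 transcription factors of endothelium tested, 12 were higher and 9 lower in venous cells. The forkhead factor *FOXC2*, known from lymphatic and venous valves, was at 19.1 and 14.0 CPM against 2.08 and 1.66 CPM (3.07 ± 0.30, adjusted p = 1.9e-05). *HHEX*, a homeobox factor of early endothelium and liver, differed by 0.89 ± 0.15. *SOX18*, a factor of early vessels, stood lower, at 381 and 271 CPM against 674 and 599 CPM (-1.02 ± 0.20, adjusted p = 0.0032). In each case the venous and arterial values did not overlap. *MECOM*, a factor that is also used in blood stem cells, was called lower (-0.45 ± 0.12), a call that was lost in cells of at most 6000 genes (-0.40, adjusted p = 0.0756) and without cells carrying those cardiac, mesenchymal or platelet UMIs (-0.42, adjusted p = 0.0570), at nearly the same size.

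Ligands and receptors of the VEGF and angiopoietin families went in both directions, with 5 of 14 higher and 5 lower in venous cells. Over all genes tested, 10.3% were higher and 8.71% lower. Beside the receptor *TEK*, the co-receptor *NRP2* and the ligand *VEGFA* (30.8 and 32.9 CPM against 9.002 and 10.7 CPM, 1.64 ± 0.16, adjusted p = 1.5e-05) were higher. *ANGPTL4*, a lipase inhibitor induced by low oxygen and fatty acids, was at 52.3 and 63.2 CPM against 2.20 and 3.17 CPM (4.37 ± 0.26, adjusted p = 4.1e-07). Lower were *ANGPT2*, a ligand of TEK, at 38.1 and 37.0 CPM against 428 and 439 CPM (-3.58 ± 0.25, adjusted p = 1.3e-06), and *FLT1*, the VEGF decoy receptor, at 952 and 1067 CPM against 2725 and 2822 CPM (-1.51 ± 0.14, adjusted p = 1e-05). *VEGFC* differed by -2.62 ± 0.24 and the co-receptor *NRP1* by -0.86 ± 0.14. Venous values of the higher genes lay above the arterial values in both organoids, and those of the lower genes below.

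Genes of sprouting tip cells and the apelin axis were lower in 7 of 11 cases, with *APLNR* the single higher member. *ESM1* showed the widest gap, 96.6 and 131 CPM in venous cells and 2554 and 2749.9 CPM in arterial cells (-4.60 ± 0.26, adjusted p = 2.6e-07). The insulin receptor *INSR* was at 74.0 and 60.4 CPM against 274 and 286 CPM (-2.11 ± 0.14, adjusted p = 9e-07), and the netrin receptor *UNC5B* at 66.5 and 58.4 CPM against 343 and 345 CPM (-2.51 ± 0.16, adjusted p = 8.3e-07). Venous and arterial values of these genes were well apart. Among the other genes furthest down were *ACKR3*, a scavenger receptor for CXCL12, at 4.02 and 3.16 CPM against 106 and 73.0 CPM (-4.67 ± 0.48, adjusted p = 2.5e-05), the mTOR inhibitor *DEPTOR* (-4.14 ± 0.20) and the potassium channel *KCNQ3* (-4.37 ± 0.34).

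Of 18 Notch pathway genes tested, 9 were lower and 3 higher in venous cells. The lower genes *HEY2*, *DLL4*, *HEY1*, *NOTCH4*, *JAG2*, *NOTCH1* and *JAG1* are also on the arterial list, so the 2 counts are not separate results. The targets *HEY1* (78.7 and 53.9 CPM against 316 and 252 CPM, -2.15 ± 0.22, adjusted p = 3.2e-05) and *HEY2* (13.5 and 9.47 CPM against 61.2 and 92.3 CPM, -2.77 ± 0.24, adjusted p = 8e-06) were lower, as was the receptor *NOTCH4* (-1.29 ± 0.14). The target *HES1* went the other way, at 103 and 96.3 CPM against 50.8 and 48.4 CPM (0.95 ± 0.15, adjusted p = 0.00079). Both organoids gave the same direction for each of these genes. The count of higher members depended on the analysis and ranged from 1 to 5 over the alternatives.

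In BMP and TGF-beta signalling, 9 of 22 genes were higher and 4 lower in venous cells. The extracellular regulator *BMPER* was at 376 and 352 CPM against 89.1 and 122 CPM (1.74 ± 0.14, adjusted p = 4.3e-06). The inhibitory SMADs, which damp the signal inside the cell, were higher, *SMAD6* at 269.9 and 298 CPM against 70.5 and 99.3 CPM (1.69 ± 0.18, adjusted p = 3.8e-05) and *SMAD7* at 46.5 and 49.4 CPM against 9.32 and 11.7 CPM (2.14 ± 0.17, adjusted p = 3.6e-06). Venous values exceeded arterial values in both organoids for all 3. *ID1*, a direct target of BMP signalling, differed by 0.66 ± 0.16 and lost its call when all gated classes entered the fit (0.59, adjusted p = 0.0540). The effector *SMAD1* (-1.10 ± 0.16) and the receptor *TGFBR2* (-1.19 ± 0.16) were lower. Of 18 genes of WNT signalling tested, 4 were higher, with *SOST* far in front, and 3 lower. Among all genes tested, 10.3% were called higher and 8.71% lower.

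Guidance genes were also divided, with 7 of 23 higher and 6 lower, beside 10.3% and 8.71% of all genes tested. *UNC5C*, a netrin receptor that FLRT proteins can bind, was at 271 and 320.3 CPM against 27.6 and 28.9 CPM (3.33 ± 0.18, adjusted p = 2.1e-07), whereas *UNC5B* was lower. *SEMA3A*, a repulsive ligand, differed by 1.78 ± 0.18, and *PLXNA2*, a semaphorin receptor, by -1.92 ± 0.15. Junction genes were lower in 9 of 12 cases and higher in none (median -0.77). Of the lower ones, *GJA4* and *GJA5* are also on the arterial list, *ESAM* on the pan-endothelial list and *PLVAP* on the endocardial list. The connexin *GJA1* was at 114 and 103 CPM against 604 and 552 CPM (-2.47 ± 0.19, adjusted p = 3.1e-06), and the tight junction protein *ESAM* at 419 and 358 CPM against 754 and 686 CPM (-0.94 ± 0.13, adjusted p = 0.00033), with no overlap between venous and arterial values.

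Matrix genes were higher in 6 and lower in 8 of 24 cases, beside 10.3% and 8.71% of all genes tested. Fibronectin (*FN1*) was at 652 and 597 CPM in venous cells and 52.3 and 62.7 CPM in arterial cells (3.39 ± 0.38, adjusted p = 5.5e-05). The laminin chain *LAMA4* of vessel basement membranes was at 34.8 and 44.4 CPM against 167 and 154 CPM (-2.08 ± 0.17, adjusted p = 5.4e-06), and *NID2*, which links laminin to collagen IV, differed by -1.23 ± 0.12. The organoids were on the same side for each. The fibre glycoprotein *EMILIN1* (2.58 ± 0.23) and *MMRN1* (2.24 ± 0.32) were higher. *FN1* was also high in mesenchymal cells, at 1468 and 1468 CPM.

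In clotting and its control, 8 of 15 genes were higher and 2 lower, but 4 were higher when all gated classes entered the fit. *TFPI2*, an inhibitor of clotting proteases, was at 477 and 624 CPM against 59.2 and 77.2 CPM (2.96 ± 0.33, adjusted p = 4.7e-05). The protein C receptor *PROCR* differed by 0.77 ± 0.17. Genes that respond to blood flow were higher in 2 and lower in 3 of 11 cases, beside 10.3% and 8.71% of all genes tested. Endothelin (*EDN1*), which constricts vessels, was at 74.0 and 74.2 CPM against 4.97 and 18.2 CPM (2.66 ± 0.48, adjusted p = 0.002), and the complement regulator *CD59* was lower (-1.71 ± 0.23). The organoids fell on the same side for each. Among 13 genes of adhesion and leukocyte traffic, the chemokine *CCL14* (3.23 ± 0.42) and the adhesion molecule *ICAM2* (1.16 ± 0.15) were higher and 4 genes lower. Of 13 scavenger and endocytic receptors, 6 were higher and 1 lower, and beside those of the sinusoidal list the higher ones included caveolin (*CAV1*), the coat of surface pits (1.25 ± 0.18).

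Growth factor and retinoid genes were called in both directions, where 19.0% of all genes passed. *FGF12*, an intracellular relative of the FGFs, was at 35.5 and 31.1 CPM against 271 and 282 CPM (-3.10 ± 0.28, adjusted p = 1e-05) and was the single lower gene of 7 FGF genes tested, of which 2 were higher. Among 14 genes of insulin-like growth factor signalling, 1 was higher, *IGFBP7* (2.26 ± 0.32), and 4 were lower, among them *IGFBP3* at 126 and 71.5 CPM against 978 and 776 CPM (-3.20 ± 0.29, adjusted p = 1.1e-05). The retinoic acid receptor *RARB*, itself a target of retinoic acid, was at 26.8 and 23.0 CPM against 4.22 and 5.39 CPM (2.33 ± 0.30, adjusted p = 0.00015). For all 3 the venous and arterial values did not overlap. Of 12 retinoic acid genes, 2 were higher and 2 lower.

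Glycolysis genes were higher than in arterial cells in 11 of 17 cases and lower in none (median 0.56), where 10.3% of all genes tested were higher. Enolase (*ENO1*) was at 1064 and 1209 CPM against 453 and 460.5 CPM (1.26 ± 0.13, adjusted p = 3.5e-05), lactate dehydrogenase (*LDHA*) at 698 and 800.0 CPM against 298 and 281 CPM (1.31 ± 0.15, adjusted p = 7.3e-05) and the glucose transporter *SLC2A1* at 38.7 and 50.5 CPM against 10.7 and 13.1 CPM (1.85 ± 0.24, adjusted p = 0.00016). Both organoids were higher in venous cells. Against cycling venous cells 1 of the 17 was called higher (*SLC2A3*), and against cells without *NR2F2* and *CXCR4* UMIs also 1 (*ENO1*). Of 11 genes for lipid handling, 4 were higher. *PPARG*, a nuclear receptor that governs lipid storage, was at 45.8 and 65.4 CPM against 3.59 and 6.98 CPM (3.36 ± 0.28, adjusted p = 5.5e-06), and the lipid droplet coat *PLIN2* differed by 1.04 ± 0.18. *LPL* (1.32 ± 0.30) lost its call in 2 alternatives (1.05 and 1.25, adjusted p = 0.0622 and 0.0803) and the fatty acid receptor *CD36* (1.63 ± 0.32) after thinning before the gate (1.64, adjusted p = 0.163).

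Genes of S phase and mitosis outside the gate were higher in 17 of 29 cases and lower in none (median 0.92), within cells that had at most 2 UMIs of *MKI67* and *TOP2A*. The licensing factor *CDC6* was at 13.3 and 14.2 CPM against 3.53 and 4.28 CPM (1.76 ± 0.25, adjusted p = 0.00039). The helicase subunit *MCM5* was at 23.6 and 28.9 CPM against 9.95 and 12.0 CPM (1.20 ± 0.17, adjusted p = 0.00034), with no overlap for either gene. The count was 8 when cells were thinned to 5000 UMIs before the gate and 11 in cells of at most 6000 genes, and *MCM5* (1.20 ± 0.17) lost its call after thinning at a similar size (1.06, adjusted p = 0.123). None of 8 cell cycle inhibitors passed.

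Markers of other cell types were measured in the same way, since doublets and free RNA had not been removed. The 9 cardiomyocyte genes outside the gate summed to 231 and 164 CPM in venous cells and 128 and 166 CPM in arterial cells, with *TNNT2*, of the thin filament, the most abundant and *MYH7*, a ventricular myosin, at most 3 UMIs. None of 8 tested passed. The 7 erythroid genes summed to 358 and 669.6 CPM against 167 and 939 CPM (*HBE1* the most abundant in venous cells), and none passed. The 8 megakaryocyte genes summed to 279 and 741 CPM against 186 and 462 CPM (*PF4* the most abundant), and only *ITGB3*, an integrin that endothelium also uses, passed (1.03 ± 0.25), but not when all gated classes entered the fit (0.96, adjusted p = 0.162). The 11 mesenchymal genes summed to 366 and 323 CPM against 160.0 and 127 CPM. Of 10 tested, *COL1A2*, a chain of collagen I, was at 145 and 135 CPM against 24.9 and 24.0 CPM (2.46 ± 0.23, adjusted p = 1.5e-05) and *COL3A1* differed by 1.14 ± 0.32 (1.07 with all gated classes in the fit, adjusted p = 0.0836), while *POSTN* had at most 3 UMIs. The 7 macrophage genes outside the gate summed to 70.3 and 73.1 CPM against 18.8 and 24.5 CPM, mostly *AIF1* (53.2 and 58.0 CPM against 9.88 and 12.5 CPM, 2.26 ± 0.23), while *CD14* had at most 3 UMIs. Of 7 haemogenic genes tested, only *KIT*, a receptor of progenitors, was called, and it was higher (2.40 ± 0.34). Over all genes tested, 19.0% were called in either direction, so counts this small are not read as results about these lists. The 8 endoderm genes summed to 44.3 and 8.12 CPM (most abundant *AFP*) and the 8 pericyte genes to 390 and 322 CPM against 329 and 309.7 CPM (most abundant *RGS5*), with no call in either list. The part of these transcripts in the other differences was not tested. Without any cell that had a UMI of *MYH6*, *PDGFRA*, *PF4* or *TNNT2* the comparison gave 2157 calls, a count that does not say which genes they were.

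Venous cells were next set against venous cells in cycle, which differ in the gate only by *MKI67* and *TOP2A*. Of 14562 genes, 1091 passed (7.49%), 377 higher in the non-cycling cells (2.59%) and 714 lower (4.9%), and 1679 passed with the organoid as a block. The cycling class rested on 23 and 25 cells with a median of 22939 and 18657 UMIs, so that it was deeper per cell than the non-cycling class. All 29 S-phase and mitotic genes outside the gate were lower (median -3.18), and these genes move with the pair that the gate used. *CENPF*, of the mitotic kinetochore, was at 9.97 and 8.57 CPM against 182 and 199 CPM (-4.32 ± 0.24, adjusted p = 1.4e-06), and the replication clamp *PCNA* at 52.8 and 45.3 CPM against 165 and 162 CPM (-1.70 ± 0.15, adjusted p = 3.3e-05). The groups did not overlap.

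Part of the venous and sinusoidal genes was higher in the non-cycling class. Of the 8 venous genes, 3 were higher and none lower, with *FLRT2* at 432 and 407 CPM against 165 and 93.9 CPM (1.72 ± 0.23, adjusted p = 0.00065) and *EPHB4* at 138 and 127 CPM against 85.7 and 73.7 CPM (0.76 ± 0.19, adjusted p = 0.028). *CRHBP* was at 435 and 429 CPM against 163 and 209.9 CPM (1.24 ± 0.24, adjusted p = 0.0089), a call lost when 10% of the counts was removed in proportion to the profile of all barcodes, as a correction for free RNA (adjusted p = 0.0653), although the log2 fold change did not shrink (1.30). *APLNR*, at 405 and 349 CPM against 295 and 261 CPM, and *OIT3*, at 247 and 260.1 CPM against 312 and 339 CPM, did not pass (adjusted p = 0.11 and 0.38), although 3 alternatives called *APLNR* (0.46 to 0.60, against 0.46 ± 0.16 here, adjusted p = 0.0071 to 0.0385). Of 14 sinusoidal genes, 5 were higher, among them *MAF* (1.40 ± 0.20, adjusted p = 0.0011) and *STAB2*. It was at 33.6 and 17.6 CPM against 0 and 1.84 CPM and lost its call with a gate of 1 UMI (1.76, adjusted p = 0.190) and after the correction for free RNA (4.85, adjusted p = 0.0504), against 4.85 ± 1.09 here, a fitted value that rests on at most 3 UMIs in the cycling cells. *SOST* was at 309 and 241 CPM against 122 and 38.7 CPM (1.78 ± 0.31, adjusted p = 0.0044), and *KDR* at 1281 and 1243 CPM against 679 and 751 CPM (0.85 ± 0.14, adjusted p = 0.0029). Of 14 arterial genes, 2 were also higher in the non-cycling class and none lower.

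Cell cycle inhibitors were higher in 3 of 8 cases, with *CDKN1A* (p21) at 111 and 99.7 CPM against 56.6 and 46.0 CPM (1.06 ± 0.21, adjusted p = 0.01). Another of them, *BTG1*, lost its call when all gated classes entered the fit (1.145, adjusted p = 0.0634). *TP53INP1*, a stress response gene under p53, was at 39.9 and 39.9 CPM against 8.57 and 3.68 CPM (2.70 ± 0.37, adjusted p = 0.00079). *ANGPTL4* was at 52.3 and 63.2 CPM against 10.3 and 1.84 CPM (3.23 ± 0.43, adjusted p = 0.00063). *CD200R1*, an inhibitory immune receptor, had 27.1 and 22.8 CPM in venous cells and no UMI in the 48 cycling cells, which makes it at least 5.27-fold and 4.12-fold higher against a limit of 3 UMIs per organoid. The platelet genes *PF4* and *PPBP* were also called higher but lost the call after the correction for free RNA (adjusted p = 0.302 and 0.238). It left 12 and 624 of 636 and 1584 UMIs of *PF4* in venous cells, 171 and 667 of 646 and 1316 UMIs of *PPBP*, and no UMI of either in cycling venous cells, so that the fitted log2 fold changes after it (11.4 and 11.8) are no measure of size. *CDH12* (2.63 ± 0.66) lost its call with DESeq2 (2.65, adjusted p = 0.241). The 8 megakaryocyte genes summed to 279 and 741 CPM in venous cells and 41.2 and 116 CPM in cycling venous cells, and the 7 erythroid genes to 358 and 669.6 CPM against 2286 and 99.4 CPM. The 7 macrophage genes outside the gate summed to 70.3 and 73.1 CPM against 25.7 and 23.9 CPM, and *AIF1* among them was called higher. Their part in the other differences was not tested.

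The share of cycling cells among venous cells was 5.53% in organoid 32.7 (23 of 416, exact 95% interval 3.54 to 8.18%) and 6.65% in organoid 33.10 (25 of 376, 4.35 to 9.66%). Among arterial cells it was 2.95% (30 of 1017) and 1.68% (15 of 892). When cells were thinned to 5000 UMIs before the gate, the shares were 0.524% and 1.45% for venous and 0.815% and 1.29% for arterial cells, so that no order between the classes is read, and the difference was not tested.

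The third comparison asked how venous cells differed from endothelial cells in which neither *NR2F2* nor *CXCR4* was found. That class had a median of 7188 and 6525.5 UMIs per cell, well below the venous cells, and the part of this gap in the differences was not tested. Sums of some markers of other cell types were higher in that class. The 7 erythroid genes were at 1416 and 1710 CPM against 358 and 669.6 CPM in venous cells (*HBZ* the most abundant in that class), but none of them passed. The 9 cardiomyocyte genes were at 449 and 305 CPM against 231 and 164 CPM (*TNNT2* the most abundant). Of these lists only *MYL3*, a myosin light chain, was called, and it was lower in venous cells (-1.50 ± 0.37, adjusted p = 0.034). In the other direction, the mesenchymal gene *COL1A2* and the macrophage gene *AIF1* were called higher in venous cells. The 7 macrophage genes outside the gate summed to 70.3 and 73.1 CPM in venous cells against 52.8 and 34.1 CPM. The part of all these transcripts in the other differences was not tested. Of 14562 genes, 781 passed (5.36%), 450 higher in venous cells (3.09%) and 331 lower (2.27%), and 1830 passed with the organoid as a block. Venous genes were higher in 7 of 8 cases. Among them *NT5E* lost its call when all gated classes entered the fit (0.72, adjusted p = 0.0675). *APLNR* was at 405 and 349 CPM against 139 and 177 CPM (1.23 ± 0.15, adjusted p = 0.00049) and *FLRT2* at 432 and 407 CPM against 75.5 and 60.2 CPM (2.60 ± 0.22, adjusted p = 4.8e-05). *TEK*, of the pan-endothelial list, was at 305 and 344 CPM against 87.6 and 122 CPM (1.60 ± 0.16, adjusted p = 0.00011). These values did not overlap. *OIT3* was at 247 and 260.1 CPM against 175 and 230.0 CPM and did not pass (adjusted p = 0.48), except after thinning before the gate (0.78, against 0.30 ± 0.19 here, adjusted p = 0.0097). *CRHBP* was higher (1.53 ± 0.22, adjusted p = 0.0014). With a gate of 1 UMI it missed the threshold at about the same size (1.48, adjusted p = 0.0512), and without cells carrying those cardiac, mesenchymal or platelet UMIs its log2 fold change was 1.06 (adjusted p = 0.260).

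Arterial genes were lower in 8 of 14 cases in this comparison. *SOX17* was at 45.8 and 42.9 CPM in venous cells and 154 and 131 CPM in the class without *NR2F2* and *CXCR4* UMIs (-1.71 ± 0.16, adjusted p = 8e-05), and *HEY2* at 13.5 and 9.47 CPM against 54.6 and 53.2 CPM (-2.24 ± 0.26, adjusted p = 0.00029). Of the tip-cell list, *ESM1* was at 96.6 and 131 CPM against 1074 and 1136 CPM (-3.31 ± 0.24, adjusted p = 1.8e-05). Sinusoidal genes were higher in 7 of 14 cases, among them *MAF* at 252 and 245 CPM against 33.7 and 43.7 CPM (2.66 ± 0.18, adjusted p = 1.4e-05) and *GATA4* at 266 and 264 CPM against 84.4 and 84.7 CPM (1.62 ± 0.17, adjusted p = 0.00017). *NPL*, an enzyme that breaks down sialic acid, was at 134 and 160.1 CPM against 20.2 and 25.3 CPM (2.66 ± 0.22, adjusted p = 3.9e-05). The levels of the class without *NR2F2* and *CXCR4* UMIs fell between those of venous and arterial cells for *SOX17*, *GATA4* and *ESM1*. None of the 29 S-phase and mitotic genes passed.

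Venous cells also varied among themselves. After thinning to 5000 UMIs, the genes with the largest excess of variance over counting error included fetal and embryonic globins and the platelet genes *PF4* and *PPBP*. These transcripts made up 1% or more of the UMIs in 5 and 19 venous cells, up to 7.33% and 5.40%, and in 12 and 46 arterial cells. Without those cells, an alternative chosen after the data were seen, *ESM1* came first of 4660 genes, followed by the channel subunit *KCNIP4*. Blood transcripts stayed near the top, with *PF4* at rank 3, *HBZ* at 8, *HBE1* at 13 and *PPBP* at 15. *ESM1* had a UMI in 11.2% and 11.4% of the thinned venous cells, and the top 5% of cells held 80.7% and 84.9% of its UMIs. *DLK1*, a Notch family ligand, the peptide gene *NTS* and the guidance ligand *SLIT2* were also among the 15 most variable genes. The top 5% of cells held 34.1% and 34.7% of the UMIs of *SOST*, 17.8% and 17.5% of those of *APLNR* and 12.0% and 12.4% of those of *ID1*. Such shares also depend on the level of a gene, so they are not compared as variability alone. The mean was 0.441 and 0.541 UMIs per cell for *ESM1* and 14.6 and 11.3 for *ID1*. The comparison with arterial cells gave 2917 calls when the cells rich in blood transcripts were left out of both classes.

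**Figure D5:**
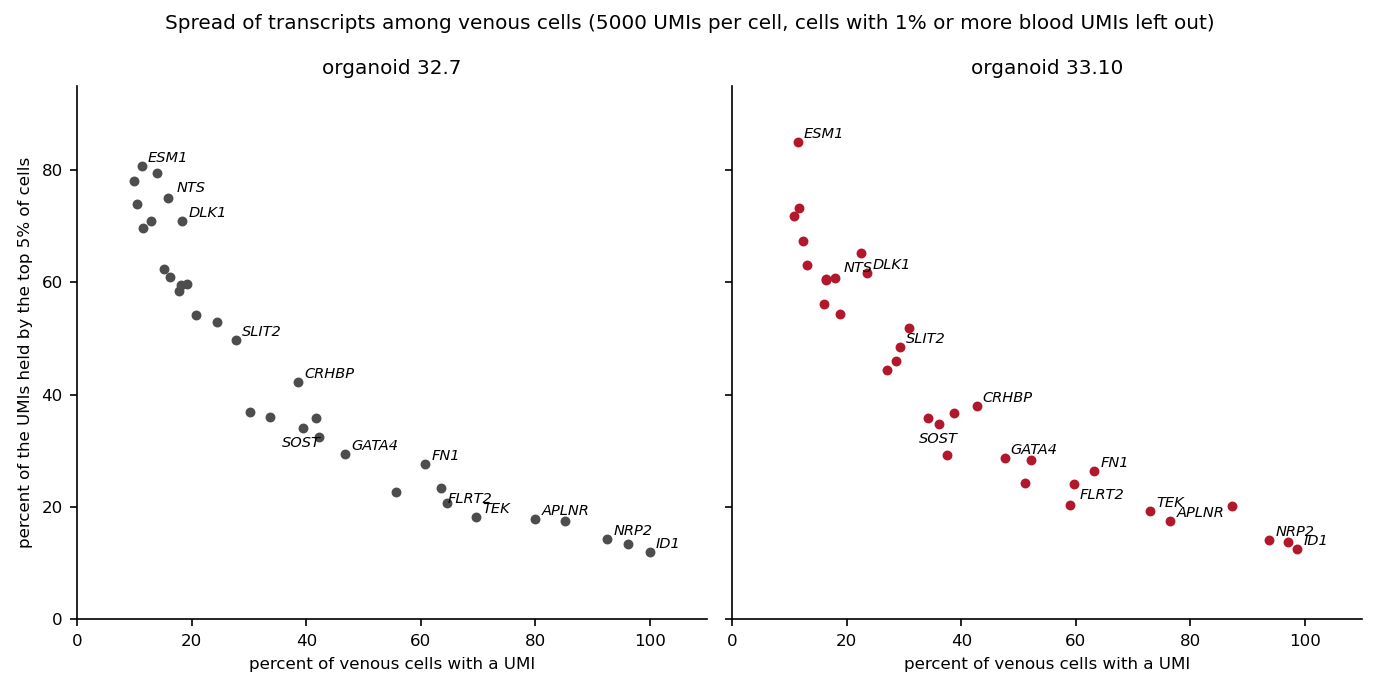
Share of a gene's UMIs held by the top 5% of venous cells (vertical axis, percent) against the share of venous cells with a UMI of it (horizontal axis, percent), 1 point per gene and 1 panel per organoid, in thinned cells without those rich in blood transcripts. *ESM1* stands at the upper left, with 80.7% and 84.9% of its UMIs in the top 5% of cells, and *ID1* at the lower right, with 12.0% and 12.4%.

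Some genes were found together in the same venous cells. *SOST* had a UMI in 63.6% and 60.6% of the thinned cells with a UMI of *CRHBP* and in 24.7% and 17.7% of those without. For *MRC1* the shares were 47.6% and 56.9% against 18.9% and 22.0%, and for *FLRT2* 74.8% and 76.6% against 55.9% and 48.4%. *APLNR* showed no such gap, with 83.9% and 75.9% of the cells with *CRHBP* and 77.5% and 78.0% of those without. *FN1* had a UMI in 75.1% and 79.1% of cells with *GATA4* and in 47.7% and 50.0% of those without. Conversely, *CRHBP* was found in 14.6% and 27.0% of cells with a UMI of *ESM1*, against 41.6% and 44.4% of the other cells, and *CXCR4* in 17.1% and 29.7% against 5.78% and 4.55%. Over 370 and 323 thinned cells, the Pearson correlation was 0.421 and 0.409 between *CRHBP* and *SOST*, 0.573 and 0.407 between *FN1* and *SOST*, and 0.454 and 0.479 between *FN1* and *FLRT2*. Cells of 1 organoid share a library, and these values are descriptions without a test.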

How the data were processed

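The authors deposited raw UMI counts, 1 matrix for each organoid, from Cell Ranger 7.0.0 (Chromium 3′ v3.1 libraries, reference GRCh38 of 10x Genomics, intronic reads included) before their depth equalization and SoupX correction. Free RNA and doublets were therefore kept, and no doublet caller was run. Here cells were gated on raw UMIs, summed per class and organoid (1 organoid is 1 replicate) and tested with edgeR 4.0.16 in R 4.3.3 (quasi-likelihood, TMM, filterByExpr, Benjamini-Hochberg over all genes). In the fit were 5 endothelial classes, none below 20 cells per organoid. Cycling arterial cells, 15 in organoid 33.10, were left out. DESeq2 1.42.0, other gates, thinning and left-out organoids were alternatives. The labels do not say that the organoids came from separate differentiations, so the p-values measure only the spread between these organoids, which may be technical. Classes of 1 organoid share that organoid, which pairs them. Their deviations from the class means correlated by 0.0497 to 0.434. Named genes were those of the gene lists and, per comparison, the 10 genes furthest up and down among genes called, at 20 CPM or more in the higher class and alike in both organoids. The members and lists were chosen with earlier results of these data known. An alternative gate, a cell class and some list genes are not reported here. Scripts were tested on simulated data. Sequences are from RefSeq, and intervals cover counting error only.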

Additional observations from a re-analysis of the deposited data

How the results depend on the processing

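With 2 organoids, p-values rest on few degrees of freedom, and leaving out an organoid gives log2 values without a test. Of such values of called genes, 224 of 224, 68 of 68 and 80 of 80 kept their direction. The comparisons are those with arterial cells, cycling venous cells and cells without *NR2F2* and *CXCR4* UMIs, in that order. With 2 organoids, each such value is that of the other organoid. Genes named for their size had to be alike in both organoids, and the calls came from the same organoids. This agreement was therefore largely fixed in advance and is no evidence of robustness. The size moved by more than the SD implied by the standard error in 35 of 232, 19 of 74 and 10 of 82 values of all named genes. Pairing the classes of 1 organoid (organoid as replicate block) raised the calls to 4769, 1679 and 1830. Without the filter on low counts the second comparison had 1696 calls and the third 1337. The second comparison could not be run with a gate of 3 UMIs, after thinning, in cells of at most 6000 genes or without cells carrying UMIs of *MYH6*, *PDGFRA*, *PF4* or *TNNT2* (chosen after seeing the data), because fewer than 20 cells were left in an organoid. Of the alternative values of single genes with a test, 1355 of 1387, 247 of 259 and 440 of 451 kept direction and call. The 1 reversal was *FLI1*, which was not called and had a log2 fold change of 0.0117 in cells of at most 6000 genes.

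The share of venous cells depended on the gate. It was 3.72% with a gate of 1 UMI, 1.42% with 3 UMIs, 1.38% after thinning, 1.06% without cells carrying those UMIs, and 1.84% to 2.51% in single organoids. The cycling share of venous cells was 0.986% after thinning, 2.96% in cells of at most 6000 genes, 3.97% without cells carrying those UMIs and 5.53% to 6.65% in single organoids, and that of arterial cells was 1.05%, 1.19% and 1.68% to 2.95% under thinning, the gene limit and in single organoids. The mean share of venous cells with a UMI over 8 venous markers fell from 66.9% to 52.5% when cells were thinned to 5000 UMIs, so depth limits these shares. The cause of the other shifts was not tested.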
